A study of Mus musculus with 9 samples.

Results

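Regulators of G protein signalling (RGS) were followed in mouse pre-B cells through 9 genes, Rgs1, Rgs2, Rgs3, Rgs10, Rgs12, Rgs14, Rgs16, Rgs18 and Rgs19. They were read by 21 of the 45101 probe sets on the array, namely every probe set that the platform annotation assigns to 1 of these symbols alone. Total RNA was measured on 9 Affymetrix expression arrays, 3 for each of 3 groups. All 3 groups were pre-B cells labelled IRF4,8 null, for the loss of IRF4 and IRF8, a pair of related transcription factors, so no group was labelled as wild type. In the +IRF4 group IRF4 had been reintroduced and the cells grew in high IL-7. In the low IL-7 group and the high IL-7 group cells of the same label grew without IRF4, in 0.25 and 5 ng of IL-7, with the volume given differently in different labels. IL-7 is the cytokine on which B cell precursors depend for survival and division. The means of reintroducing IRF4 are not given in the sources used here, and the labels describe no cells that were handled in the same way without it.

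RGS proteins switch off signals from receptors that couple to heterotrimeric G proteins. A ligand-bound receptor loads the alpha subunit with GTP, and an RGS protein speeds the hydrolysis of that GTP, so that alpha and the beta-gamma pair come back together and the signal ends. In lymphocytes they are best known for limiting the response to chemokines, the ligands that place B cell precursors within the bone marrow. Rgs1, Rgs2, Rgs3, Rgs16 and Rgs18 belong to the R4 subfamily, mostly small proteins with little beyond the RGS domain. Rgs10, Rgs12 and Rgs14 belong to the R12 subfamily, and Rgs19 to the RZ subfamily.

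Median intensity per array was 139.7 to 151, and replicate arrays correlated with r from 0.978 to 0.995. Of the 21 RGS probe sets, 15 had a mean over the 9 arrays at or above 108.0 intensity units, the 40th percentile of all probe sets, which was the filter on dim signals. The other 6 lay below it. The deposited values carry no detection call, so whether a dim probe set stood above background is not known. The dimmer Irf4 probe set read 1088, 1379 and 2543 in +IRF4 cells, against 316, 270.4 and 257 in the low IL-7 arrays and 381, 202 and 261 in the high IL-7 arrays, higher in every +IRF4 array. The brighter one read 3709, 3702 and 4256 in +IRF4, against 7926, 7902 and 7161 in low IL-7 and 5791, 4719 and 4964 in high IL-7. Both Irf8 probe sets were bright in all 9 arrays. The first read 3120, 1966 and 2033 in +IRF4, 4426, 3137 and 3541 in low IL-7 and 3405, 2249.98 and 2421 in high IL-7, and the other ranged from 1966 to 4087. Whether the brighter Irf4 probe set and those of Irf8 lie in the deleted parts of the genes is not known here, so they check nothing about the knockout. Of the 12 pre-B cell marker genes on the array all passed the filter, and their summed intensity ran from 59708 to 63513 in +IRF4, 92051 to 96244 in low IL-7 and 57428 to 65232 in high IL-7, with 9 of the 12 called higher in low IL-7 than in high IL-7. The summed intensity of 20 stromal and fibroblast markers differed widely within groups, from 7462 to 27873 in +IRF4, 7111 to 14431 in low IL-7 and 10141 to 38795 in high IL-7. Of 17 stromal genes tested, 1 was higher and 4 were lower in low IL-7 than in high IL-7. T cell markers summed to 2689 to 3223 in +IRF4, 2999.6 to 3456 in low IL-7 and 3112 to 3859 in high IL-7, and dendritic and natural killer cell markers to 1593 to 2067, 1160.4 to 1315 and 1504 to 2199.8 in these groups. No gene of the marker lists was at 0 in every array. Differences are on the scale of log2(intensity + 16), on which dim probe sets appear to change less than they do, with n = 3 arrays in each group. A probe set counted as called when its adjusted p in limma (Benjamini-Hochberg, over all probe sets tested) was under 0.05. Since no label states that replicate arrays are separate cultures, the p-values reflect array-to-array spread that may be technical, and precision is limited by the number of arrays. In such bulk RNA, fewer cells that express a gene and less RNA per cell cannot be told apart.

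**Figure D1:**
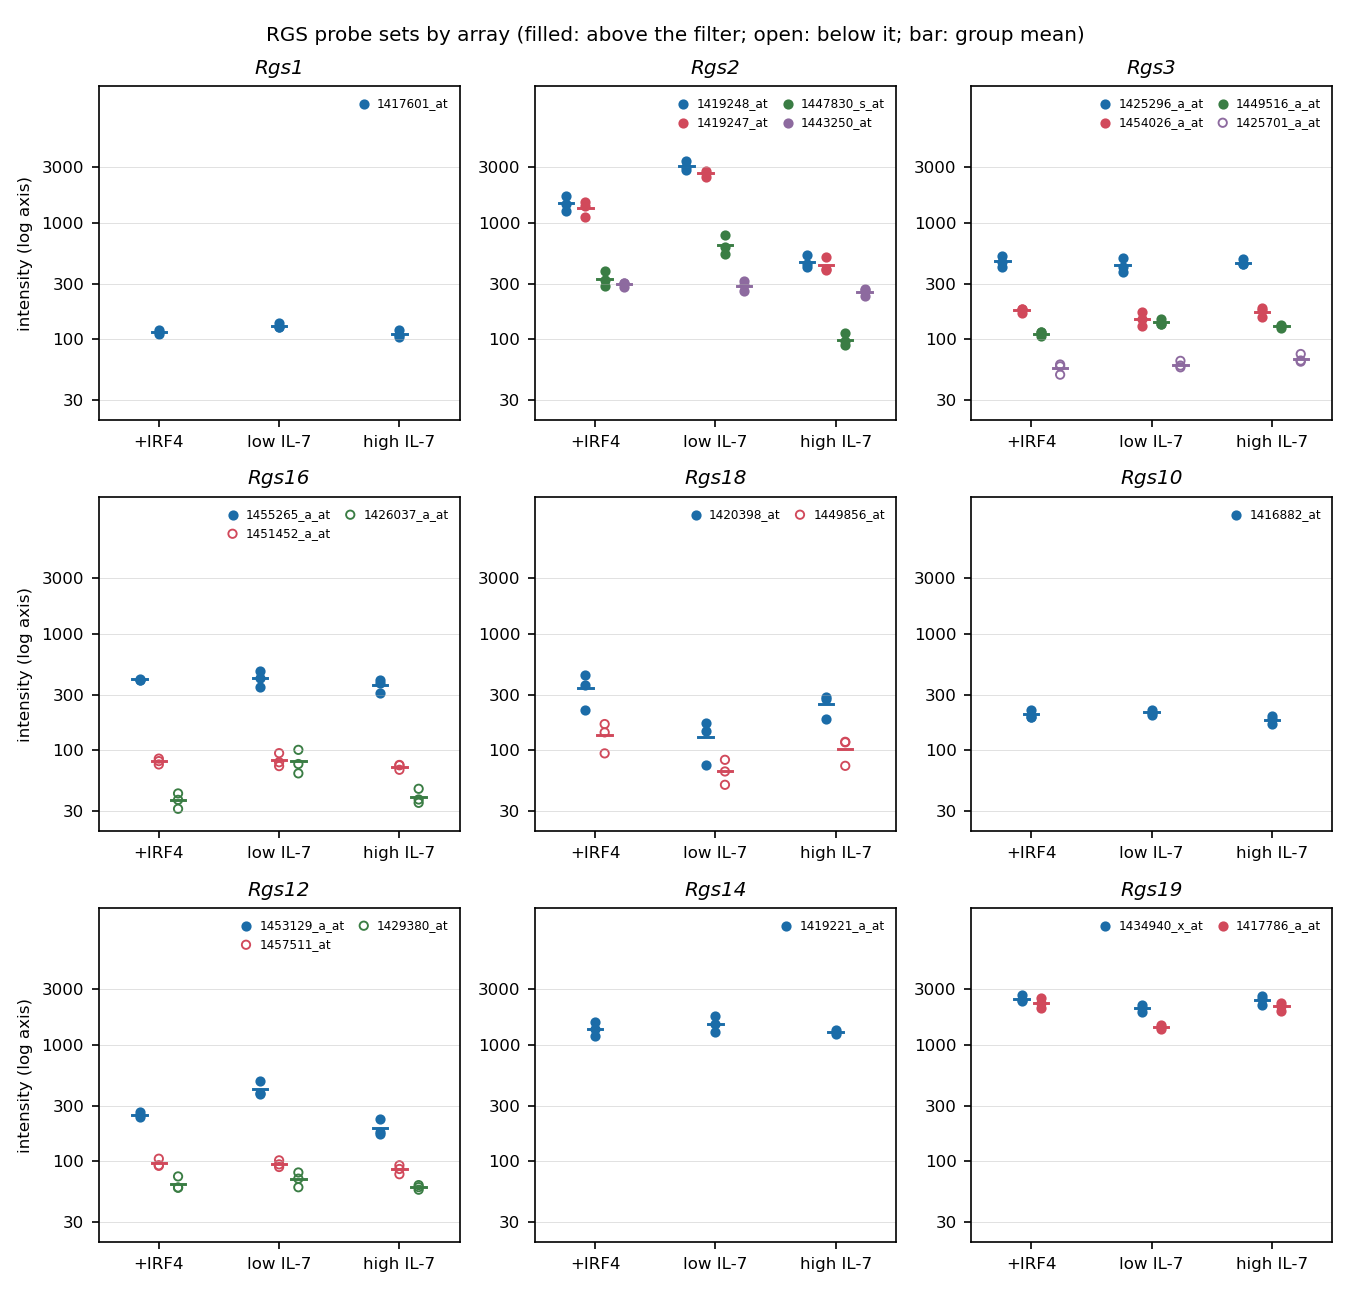
Intensity of every RGS probe set on each array, on a log axis, with +IRF4, low IL-7 and high IL-7 from left to right in each panel. Points are single arrays, bars are group means, and open points mark probe sets below the filter. In the Rgs2 panel 3 of 4 probe sets are highest in low IL-7, lowest in high IL-7 and in between in +IRF4.

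In low IL-7, Rgs2 and Rgs12 were higher and Rgs18 and Rgs19 lower than in high IL-7, while the RGS calls in +IRF4 against high IL-7 were all of Rgs2. In numbers, 6 of the 15 RGS probe sets above the filter were called in low IL-7 against high IL-7, 4 higher and 2 lower, where 36.4% of all 27024 probe sets tested were called, 18.1% higher and 18.3% lower. These were 3 of Rgs2 and 1 each of Rgs12, Rgs18 and Rgs19, a share close to that background. In +IRF4 against high IL-7, 3 of 15 were called, all higher and all of Rgs2, where 2.76% of all probe sets were called, 1.58% higher and 1.18% lower. In +IRF4 against low IL-7, 8 of 15 were called, 3 higher (Rgs18 and both of Rgs19) and 5 lower (Rgs2, Rgs3 and Rgs12), where 37.5% of all were called, 17.2% higher and 20.3% lower. Probe sets of 1 gene are not independent, so the counts are also counts of 4, 1 and 5 genes.

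Arrays of low and high IL-7 did not overlap for 10 of the 15 probe sets, against 49.2% of all. Those of +IRF4 and high IL-7 did not overlap for 7, against 20.4% of all, and those of +IRF4 and low IL-7 for 9, against 49.6%. The 7 were every Rgs2 probe set and a probe set each of Rgs3, Rgs12 and Rgs16. Since probe sets of 1 gene are not independent, these counts and the medians that follow are weighted towards Rgs2. The median difference of the 15 was 0.18 in low IL-7 against 0.03 over all probe sets, 0.13 in +IRF4 against high IL-7 where all probe sets had -0.02, and -0.05 in +IRF4 against low IL-7 where all had -0.02.

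Rgs2 had the largest differences of the 9 genes in both comparisons against high IL-7, and it was higher in both low IL-7 and +IRF4 cells than in high IL-7 cells. It encodes an R4 protein that acts preferentially on Gq, the alpha subunit that activates phospholipase C beta. The brightest Rgs2 probe set, 1419248_at, read 1269, 1707 and 1442 in the +IRF4 arrays, 2817, 3006 and 3373 in the low IL-7 arrays and 415, 530.0 and 439 in the high IL-7 arrays. The 3 groups did not overlap, with low IL-7 highest and high IL-7 lowest. The mean intensity was 1473 ± 221 in +IRF4 and 3065 ± 283 in low IL-7, against 461 ± 60.6 in high IL-7 (SD, n = 3 each).

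The first 250 bases upstream of the single annotated Rgs2 start are printed because this gene differed most from high IL-7. The window is chr1:144004150-144004399 on the minus strand of GRCm38.p6, from RefSeq, written 5′ to 3′ with every CpG in capitals.
Rgs2 promoter: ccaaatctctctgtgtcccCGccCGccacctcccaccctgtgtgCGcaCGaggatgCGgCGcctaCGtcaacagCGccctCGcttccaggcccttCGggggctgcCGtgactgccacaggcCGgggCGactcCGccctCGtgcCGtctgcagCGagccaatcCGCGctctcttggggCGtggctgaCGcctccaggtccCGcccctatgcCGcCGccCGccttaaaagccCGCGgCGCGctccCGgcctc
It holds 30 CpG pairs and is 72.4% G or C. Over 32851 promoter windows of the same length the median was 6 CpG pairs and 52.4% G or C, and 5.94% of windows held at least as many CpG pairs.

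In low IL-7, Rgs2 rose by 2.69 on the log2 scale over high IL-7, 6.47-fold (SE 0.13, 95% interval 2.40 to 2.99, adjusted p = 5.94e-07). In +IRF4 it rose by 1.64 over high IL-7, 3.11-fold (SE 0.13, 95% interval 1.35 to 1.93, adjusted p = 9.79e-05). These comparisons share the 3 high IL-7 arrays, so their values are given side by side only. Set directly against each other, +IRF4 cells had less Rgs2 than low IL-7 cells, a difference of -1.06 (SE 0.13, adjusted p = 0.000137). Among 12828 genes, each standing by its brightest probe set, Rgs2 had the 21st highest difference in low IL-7 and the 37th highest in +IRF4 against high IL-7. All 3 calls of this probe set were kept without any 1 array, and the differences without 1 array ran from 2.62 to 2.79 for low against high IL-7, 1.53 to 1.74 for +IRF4 against high IL-7 and -1.17 to -0.96 for +IRF4 against low IL-7.

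The other Rgs2 probe sets were not alike. Probe set 1419247_at read 1126, 1506 and 1396 in +IRF4, 2471, 2798 and 2704 in low IL-7 and 405, 505 and 392 in high IL-7, with differences of 2.58 for low against high IL-7, 1.59 for +IRF4 against high IL-7 and -0.99 for +IRF4 against low IL-7. The dimmer 1447830_s_at, whose suffix marks probes that can match several transcripts, read 284, 384 and 322, then 538, 617 and 792, then 88.2, 112 and 96.0 in the same order of groups. Its differences were 2.52, 1.59 and -0.94, and all 3 of these probe sets were called in all 3 comparisons. The exception was 1443250_at, with 281, 302 and 306 in +IRF4, 259, 313 and 291 in low IL-7 and 236, 269 and 263 in high IL-7. Its +IRF4 arrays lay above its high IL-7 arrays, but the differences of 0.16 in low IL-7 (95% interval -0.05 to 0.36, adjusted p = 0.226) and 0.20 in +IRF4 (95% interval -0.01 to 0.41, adjusted p = 0.352) did not pass the test. What part of the gene each probe set reads is not known here.

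Marker sums of other cell types were set beside Rgs2. Over replicates 1, 2 and 3, the order in which the Rgs2 readings are given, the stromal sums were 27873, 7462 and 9089.6 in +IRF4, 7111, 14431 and 11775 in low IL-7 and 10141, 38795 and 22527 in high IL-7. In high IL-7 the stromal sums and the readings of 1419248_at had the same order. In low IL-7 the array with the lowest stromal sum had the lowest Rgs2 reading, and in +IRF4 the array with the highest stromal sum did. Among 6 myeloid markers tested, 1 (Itgam) was higher in low IL-7 than in high IL-7, where it averaged 43.6, under the filter. The myeloid sum was taken over all 14 such markers on the array, those below the filter included. It ran from 1404 to 1571 in +IRF4, 1588 to 1680 in low IL-7 and 1441 to 1518 in high IL-7. The part of stromal and myeloid cells in the Rgs2 difference was not tested.

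**Figure D2:**
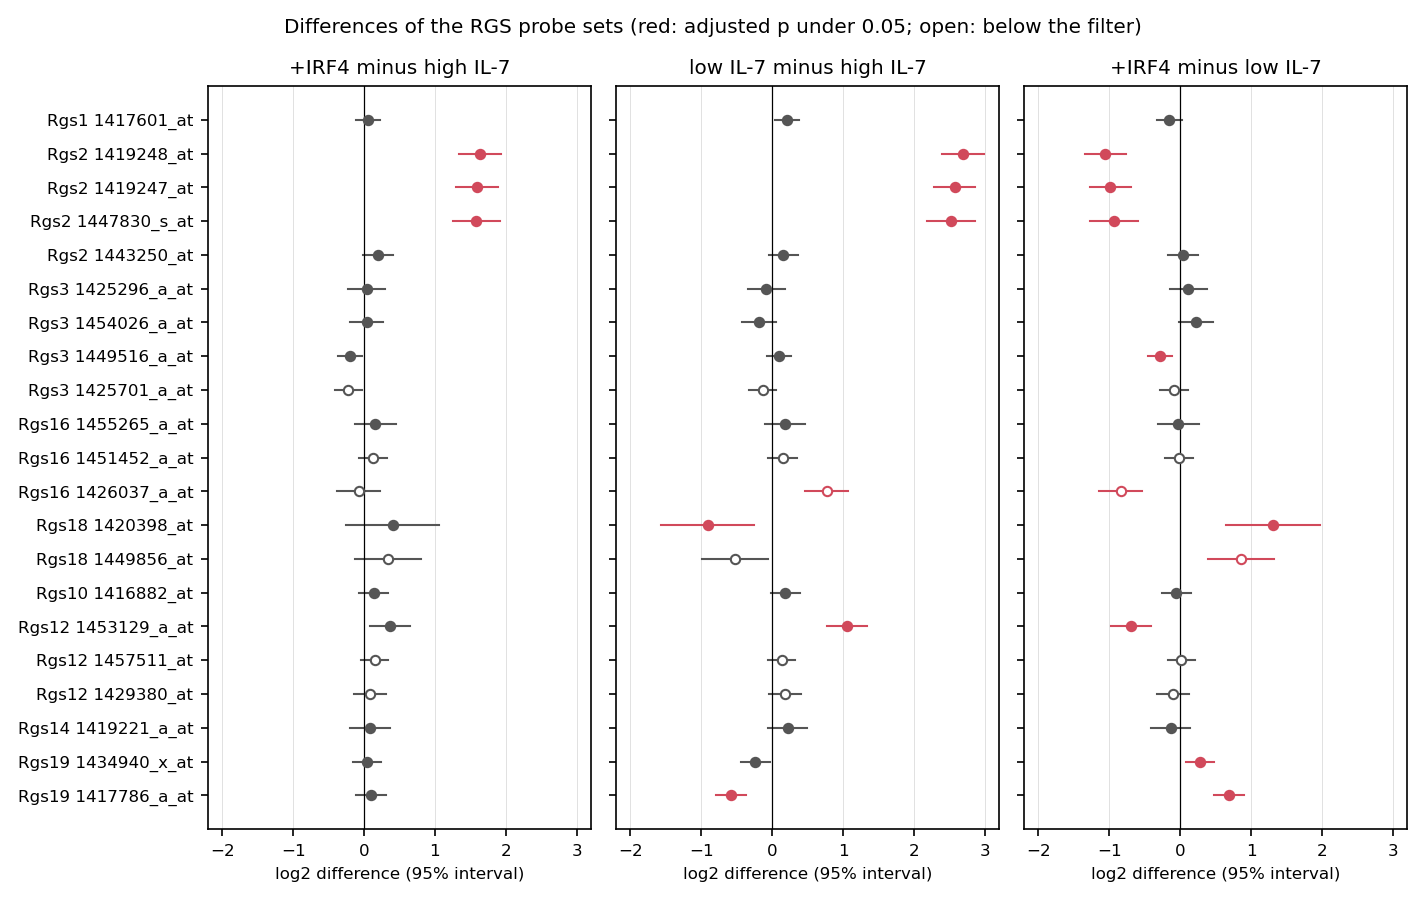
Difference of each RGS probe set on the scale of log2(intensity + 16) with its 95% interval, for +IRF4 minus high IL-7, low IL-7 minus high IL-7 and +IRF4 minus low IL-7. Red marks an adjusted p under 0.05 and open symbols mark probe sets below the filter. In the first panel the red points are the 3 Rgs2 probe sets between 1.59 and 1.64.

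Rgs18 went the opposite way to Rgs2 in low IL-7. It encodes an R4 protein known mainly from megakaryocytes and platelets. The brighter probe set, 1420398_at, read 444, 220.2 and 366 in +IRF4, 145, 74.5 and 170.5 in low IL-7 and 277, 186 and 288 in high IL-7. Every low IL-7 array lay below every array of the other groups, and replicate 2 was the lowest of each group. Rgs18 fell in low IL-7 against high IL-7, with a difference of -0.91 (SE 0.30, adjusted p = 0.0347), and was higher in +IRF4 than in low IL-7 by 1.31 (SE 0.30, adjusted p = 0.00551), 2.48-fold. Between +IRF4 and high IL-7 the difference was 0.40 (95% interval -0.26 to 1.06, adjusted p = 0.584) and the arrays overlapped. In the fit blocked on replicate number, the adjusted p of the fall in low IL-7 was 0.000499.

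The low IL-7 call of Rgs18 rested on single arrays in the fit without a block. It was lost without high IL-7 replicate 1 (-0.83, adjusted p = 0.0924), high IL-7 replicate 3 (-0.80, adjusted p = 0.108), low IL-7 replicate 1 (-1.01, adjusted p = 0.0517) or low IL-7 replicate 2 (-0.60, adjusted p = 0.134). The rise of 1.31 in +IRF4 over low IL-7 was 0.79 when arrays were weighted by their quality (adjusted p = 0.0296). The dimmer probe set 1449856_at, below the filter, read 168, 93.7 and 142 in +IRF4, 65.5, 50.3 and 82.5 in low IL-7 and 118, 73.3 and 117 in high IL-7. It was higher in +IRF4 than in low IL-7 by 0.86 (SE 0.21, adjusted p = 0.0109), a call lost with array weights (adjusted p = 0.0506) and without low IL-7 replicate 2 (adjusted p = 0.0532). Against high IL-7, its low IL-7 difference of -0.52 missed the threshold (adjusted p = 0.102) and passed it with the replicate block (adjusted p = 0.00465) or without high IL-7 replicate 2 (adjusted p = 0.0268).

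Markers of the erythroid and megakaryocyte lineage were set beside Rgs18, since it is known from those cells. The summed intensity of 9 such genes was 10543 to 11284 in +IRF4, 9615 to 10839.7 in low IL-7 and 15589 to 16149 in high IL-7, most of it from Car2. Of the 5 that passed the filter, 2 (Pf4 and Car2) were lower in low IL-7 than in high IL-7. Epor, Itga2b and Gp9, which also passed, were not called in any comparison. Their differences were -0.03, 0.07 and 0.03 in low against high IL-7 and 0.15, -0.17 and 0.06 in +IRF4 against low IL-7. Pf4, which encodes a platelet chemokine, read 213, 243 and 222 in +IRF4, 161, 185 and 172 in low IL-7 and 207, 222 and 228 in high IL-7. Its difference was -0.32 in low IL-7 against high IL-7 (adjusted p = 0.0138), 0.36 in +IRF4 against low IL-7 (adjusted p = 0.00720) and 0.04 in +IRF4 against high IL-7 (adjusted p = 0.878), and in the first 2 of these it was called. Car2, a carbonic anhydrase, was lower than in high IL-7 in both other groups, with differences of -0.71 in low IL-7 and -0.59 in +IRF4 (adjusted p = 0.000164). The part of cells of this lineage in the Rgs18 differences was not tested.

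The other R4 genes differed less. Rgs1, which limits chemokine responses in B cells, read 111, 116 and 121 in +IRF4, 128, 137 and 126 in low IL-7 and 104, 109 and 119.8 in high IL-7. Its low IL-7 arrays lay above all others, yet the difference of 0.21 over high IL-7 (95% interval 0.03 to 0.38) missed the threshold at an adjusted p of 0.0614. For +IRF4 against high IL-7 it was 0.06 (95% interval -0.12 to 0.23) and against low IL-7 -0.15 (95% interval -0.33 to 0.02).

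Rgs16, another R4 protein that restrains chemokine signals in lymphocytes, had 1 probe set above the filter. This one, 1455265_a_at, read 404, 404 and 409 in +IRF4, 349, 482 and 418 in low IL-7 and 309, 403 and 381 in high IL-7, and its low IL-7 arrays overlapped both other groups. Its differences were 0.18 (95% interval -0.10 to 0.47), 0.16 (-0.13 to 0.44) and -0.02 (-0.31 to 0.26) for low against high IL-7, +IRF4 against high IL-7 and +IRF4 against low IL-7. The dimmest Rgs16 probe set, 1426037_a_at, was below the filter at 31.3, 37.4 and 42.4 in +IRF4, 63.1, 101 and 75.9 in low IL-7 and 37.6, 46.5 and 35.2 in high IL-7, with all low IL-7 arrays highest. In the fit over all probe sets it was higher in low IL-7 than in high IL-7 by 0.77 (SE 0.14, adjusted p = 0.00173) and lower in +IRF4 than in low IL-7, with a difference of -0.84 (adjusted p = 0.000945). The size rested on the added constant, and the low IL-7 difference was 0.97 with 1 added and 0.46 with 64 added. The third probe set, 1451452_a_at, also below the filter, ranged from 67.7 to 94.2 over all arrays and was not called.

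Rgs3, an R4 member made as several isoforms, was read by 4 probe sets whose suffix marks alternative transcripts. The brightest, 1425296_a_at, read 420.4, 463 and 518 in +IRF4, 377, 495 and 420.3 in low IL-7 and 441, 484 and 438 in high IL-7, and its 3 groups overlapped. Only 1449516_a_at was called, at 106, 114 and 114 in +IRF4, 134, 135 and 149 in low IL-7 and 125, 131 and 133 in high IL-7, with the +IRF4 arrays lowest. It was lower in +IRF4 than in low IL-7, with a difference of -0.29 (SE 0.08, adjusted p = 0.012), a call lost without low IL-7 replicate 3 (adjusted p = 0.0573). Its difference of -0.19 for +IRF4 against high IL-7 was not called (adjusted p = 0.248), except with array weights (adjusted p = 0.0473). Probe set 1454026_a_at ran the other way between these groups, with a difference of 0.22 for +IRF4 against low IL-7 that missed the threshold (adjusted p = 0.124) and passed it under quantile normalization (adjusted p = 0.0398) and without low IL-7 replicate 2 (adjusted p = 0.0430). The Rgs3 probe set below the filter, 1425701_a_at, ranged from 49.5 to 74.5 and was not called.

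In the R12 subfamily, Rgs12 changed most. Its protein combines the RGS domain with Ras-binding domains and a GoLoco motif, which holds inhibitory alpha subunits in their GDP form. Probe set 1453129_a_at read 262, 241 and 249 in +IRF4, 492, 376 and 384 in low IL-7 and 229, 177 and 171 in high IL-7. The 3 groups did not overlap, in the same order as for Rgs2. Rgs12 rose in low IL-7 over high IL-7 by 1.06 (SE 0.13, adjusted p = 0.000106), 2.08-fold, and was lower in +IRF4 than in low IL-7, with a difference of -0.69 (SE 0.13, adjusted p = 0.00177). The difference between +IRF4 and high IL-7 was 0.37 (95% interval 0.08 to 0.65) and was not called (adjusted p = 0.197), except with array weights, at 0.45 (adjusted p = 0.00681). The other Rgs12 probe sets lay below the filter, at 77.1 to 105 for 1457511_at and 56.8 to 79.9 for 1429380_at, and were not called in any comparison.

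Rgs10 and Rgs14 were not called. Rgs10, a small protein of little more than the RGS domain, read 194, 192 and 223 in +IRF4, 209, 223 and 201 in low IL-7 and 168, 195 and 187 in high IL-7. All its low IL-7 arrays lay above the high IL-7 arrays, with a difference of 0.19 (95% interval -0.01 to 0.39, adjusted p = 0.132), and it was 0.13 for +IRF4 against high IL-7 (95% interval -0.06 to 0.33). Rgs14, which like Rgs12 carries a GoLoco motif, was bright in every array, at 1201, 1375 and 1562 in +IRF4, 1495.2, 1763 and 1300.1 in low IL-7 and 1298, 1336 and 1247 in high IL-7. Its differences were 0.22 for low against high IL-7 (95% interval -0.06 to 0.50), 0.08 for +IRF4 against high IL-7 (-0.20 to 0.36) and -0.14 for +IRF4 against low IL-7 (-0.42 to 0.14).

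Rgs19, the RZ member, also called GAIP, acts on inhibitory alpha subunits. Its probe set 1417786_a_at read 2075, 2288 and 2545 in +IRF4, 1410.4, 1486 and 1373 in low IL-7 and 2276, 1963 and 2175 in high IL-7. The low IL-7 arrays lay below all others, while +IRF4 and high IL-7 overlapped. It fell in low IL-7 against high IL-7, with a difference of -0.58 (SE 0.10, adjusted p = 0.000774), and was higher in +IRF4 than in low IL-7 by 0.68 (SE 0.10, adjusted p = 0.000287). Between +IRF4 and high IL-7 the difference was 0.10 (95% interval -0.11 to 0.32). The brighter probe set 1434940_x_at, whose suffix marks probes that may also match other sequences and which is therefore uncertain, read 2392, 2671 and 2423 in +IRF4, 1910.2, 2179.7 and 2081 in low IL-7 and 2192, 2611 and 2477 in high IL-7. Its difference of -0.24 in low IL-7 missed the threshold (adjusted p = 0.065), but passed it with the replicate block (adjusted p = 0.0260), with array weights (adjusted p = 0.00313) and without high IL-7 replicate 1 (adjusted p = 0.0257). Its rise of 0.28 in +IRF4 over low IL-7 (adjusted p = 0.0334) was lost under quantile normalization (adjusted p = 0.148). It was also lost without low IL-7 replicate 1 (0.0932), low IL-7 replicate 3 (0.0777), +IRF4 replicate 2 (0.123) or high IL-7 replicate 3 (0.0511), the adjusted p without that array being in brackets.

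The promoter windows of Rgs12 and Rgs19 are printed because these genes, like Rgs2, had a call above the filter in low IL-7 against high IL-7 and have a RefSeq window. The windows of Rgs3, called in +IRF4 against low IL-7, and of Rgs16, called by a probe set below the filter, are described without their letters. For each, the 250 bases before the outermost annotated start are shown, chr5:34949198-34949447 on the plus strand and chr2:181693978-181694227 on the minus strand of GRCm38.p6, with every CpG in capitals.
Rgs12 promoter: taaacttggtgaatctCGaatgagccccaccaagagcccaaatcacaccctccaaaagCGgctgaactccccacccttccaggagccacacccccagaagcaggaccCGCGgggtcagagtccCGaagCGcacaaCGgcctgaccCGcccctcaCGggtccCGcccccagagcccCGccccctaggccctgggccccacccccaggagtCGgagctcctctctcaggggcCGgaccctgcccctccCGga
Rgs19 promoter: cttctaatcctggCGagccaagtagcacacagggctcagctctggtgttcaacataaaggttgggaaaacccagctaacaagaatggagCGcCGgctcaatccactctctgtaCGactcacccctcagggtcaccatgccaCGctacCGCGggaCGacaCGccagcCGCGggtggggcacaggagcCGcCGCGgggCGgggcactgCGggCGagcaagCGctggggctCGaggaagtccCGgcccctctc
The Rgs12 window holds 14 CpG pairs and the Rgs19 window 20, counts reached by 29.4% and 17.9% of all windows. Later starts are also annotated, with 3 CpG pairs for Rgs12 and 34 and 4 for Rgs19, and which start the probe sets read is not known. In all, 10 windows of 6 of the 9 genes were found (Rgs2, Rgs3, Rgs10, Rgs12, Rgs16 and Rgs19) and searched on both strands for 6 motifs. The STAT motif TTCNNNGAA occurs in 7.02% of all windows, the FOXO motif GTAAACA in 3.17% and the IRF motif GAAANNGAA in 7.13%. The motif GGAANNGAA, of ETS and IRF factors together, which can overlap the IRF motif, occurs in 6.99%. The cAMP response element TGACGTCA occurs in 1.55% and the TATA box TATAAA in 12.4%. TATAAA was found in both Rgs3 windows, beginning 100 and 177 bases before the annotated start. None of the other 8 windows held any of the 6. This says only which letters are in these windows, and no use of any motif was tested.

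**Figure D3:**
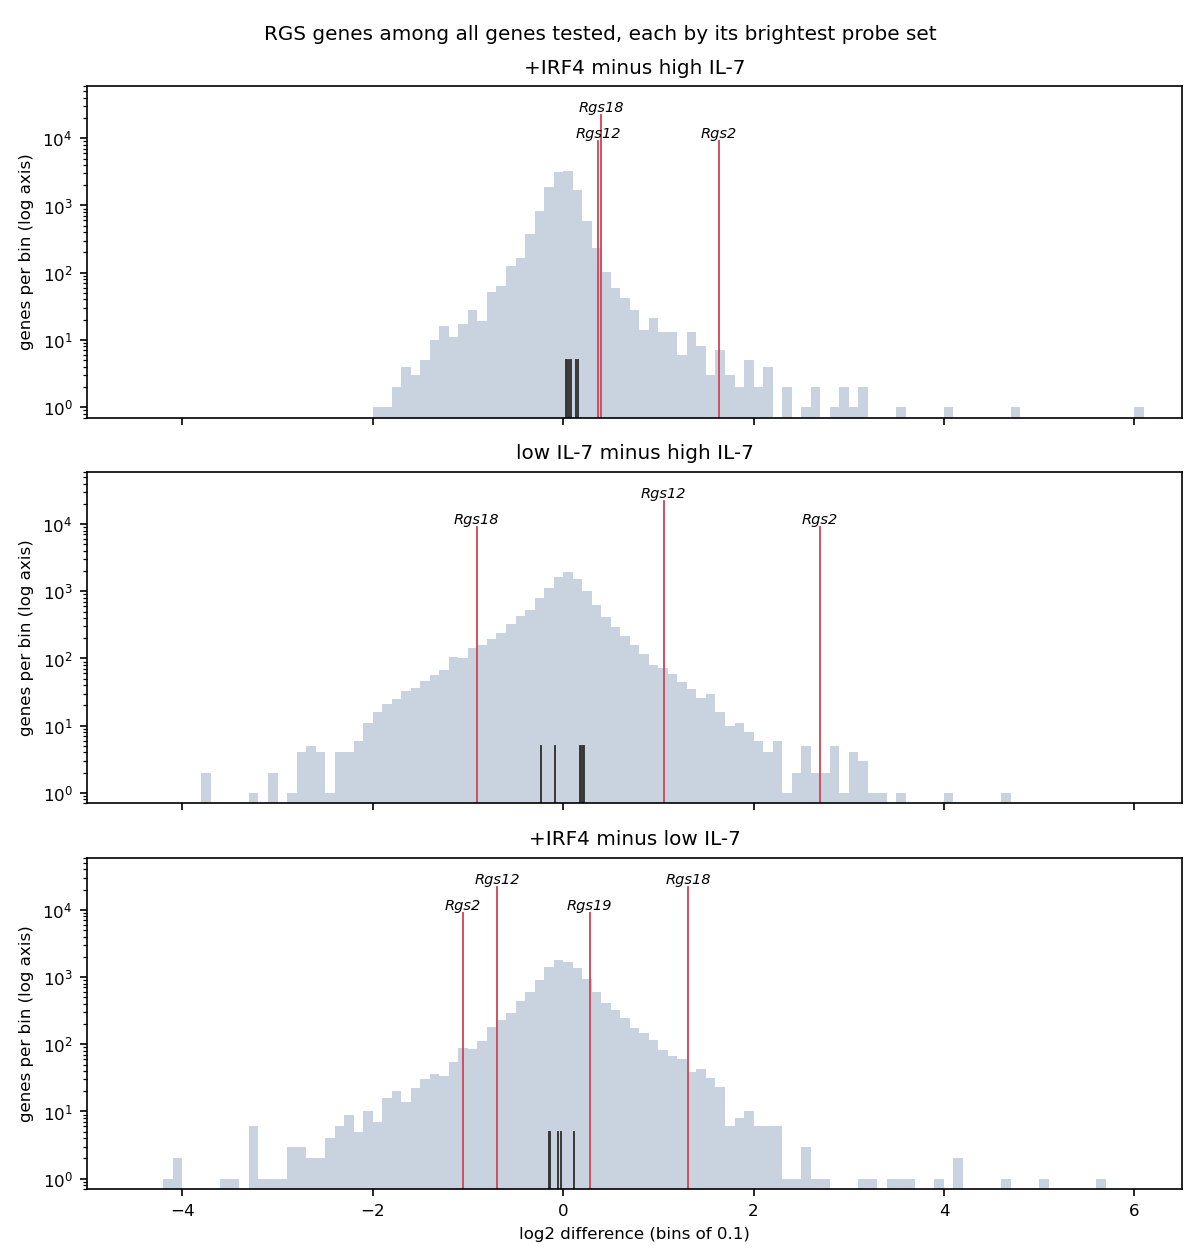
Differences of 12828 genes, each by its brightest probe set, counted in bins of 0.1 on the scale of log2(intensity + 16), with genes per bin on a log axis. Red lines mark the RGS genes with a difference of at least 0.25 in size and short dark lines the others. Rgs2 lies in the right tail against high IL-7 in both upper panels and to the left of 0 in the panel of +IRF4 minus low IL-7.

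Neighbouring RGS genes were not called alike. Rgs2, Rgs13, Rgs1, Rgs21 and Rgs18 follow each other as coding genes on chromosome 1 in the RefSeq annotation. In low IL-7 Rgs2 rose, Rgs1 was not called and Rgs18 fell. Rgs13 read 5.81 to 13.96 over the 9 arrays, below the filter, and no probe set was annotated to Rgs21 alone. Rgs16, on the same chromosome, lies beside Rgs8, which read 62.7 to 89.1 and was below the filter too.

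The genes nearest to each called member over the 9 arrays were found by the root mean square difference of the log2 values, each centred on its own mean. For Rgs2 these were Col5a3, which encodes a collagen chain (0.205), and Cd93, which encodes a membrane glycoprotein (0.239). Col5a3 averaged 402 in +IRF4 and 1009.7 in low IL-7, against 156 in high IL-7, and Cd93 averaged 2321, 4116 and 698 in that order. For Rgs12 they were Snx30, a sorting nexin (0.0761), and Smarca4, the ATPase of a chromatin remodelling complex (0.0799), with low IL-7 differences of 1.06 and 1.15. Rgs18 lay nearest to Tead1 (0.313) and Zfp521 (0.323), both transcription factors, with low IL-7 differences of -0.91 and -0.78. Rgs19, by its brightest probe set, was nearest to Slc26a6 (0.0460) and Gm32926 (0.0463), and Rgs3 to Stpg3 (0.0381) and Tnfrsf9 (0.0460), and these 4 genes had differences between -0.23 and 0.30. The Rgs3 probe set used, 1425296_a_at, was itself called in no comparison, so its neighbours do not describe the called 1449516_a_at. For Rgs19 the probe set used was 1434940_x_at, so its neighbours do not describe 1417786_a_at.

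The rest of the G protein pathway was described through 9 lists, each gene standing by its brightest probe set. Of the 12828 genes tested, 17.6% were called higher and 19.4% lower in low against high IL-7, 1.91% and 0.935% in +IRF4 against high IL-7, and 18.6% and 17.7% in +IRF4 against low IL-7. The median of all genes was 0.02, -0.01 and 0.00 in the same order of comparisons. The first list had 5 other RGS genes tested (Rgs4, Rgs9, Rgs11, Rgs17 and Rgs20) and Rgs7bp. Rgs7bp encodes a membrane anchor of R7 proteins and has no RGS domain itself. By their brightest probe sets, limma called 0 of these 6 in any comparison. In +IRF4 against low IL-7, 1 of these 6 had an unadjusted p under 0.05. A dimmer Rgs4 probe set, below the filter and outside these counts, read 49.0, 310 and 196 in high IL-7. It read 14.3, 28.6 and 16.8 in low IL-7 and 67.7, 25.9 and 29.4 in +IRF4. Within each group its readings had the order of the stromal sums, and the part of stromal cells was not tested. The dimmest Rgs4 probe set ranged from 28.8 to 55.2. Of 8 proteins with an RGS-like domain, 1 was called, Snx13, higher in low IL-7 than in high IL-7 by 0.50, and in the comparisons of +IRF4 limma called 0, with 1 at an unadjusted p under 0.05 against high IL-7. Of 5 receptor kinases and arrestins, which shut receptors off upstream of the G protein, limma called 0, with 1 at an unadjusted p under 0.05 in each comparison of +IRF4 and 0 in low against high IL-7. Among 5 other regulators of alpha subunits, Gpsm2, a GoLoco protein, was higher in low IL-7 than in high IL-7 by 0.47 (adjusted p = 0.00489), and Gpsm2 and Gpsm1 were lower in +IRF4 than in low IL-7, with differences of -0.51 and -0.48.

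Receptors were called in both directions. The receptor list, like the others, was chosen with earlier results of these data known. Its counts are therefore no test against the shares of all genes. In low IL-7 against high IL-7, 7 of 20 receptor genes tested rose and 2 fell, with a median of 0.19. Lgr5, a receptor for R-spondins, rose by 3.13, S1pr1, a sphingosine 1-phosphate receptor that guides lymphocyte exit from tissues, rose by 1.21, and Mc1r, a melanocortin receptor, fell by 3.09. In +IRF4 against high IL-7, 5 of the 20 rose and 2 fell, with a median of 0.03. Gpr18 rose by 2.60, Ccr7, a chemokine receptor for homing to lymphoid tissue, by 1.47, and Lgr5 by 1.003. Mean Ccr7 intensity was 471 in +IRF4 and 150.3 in low IL-7, against 161 in high IL-7. Mc1r in low IL-7 and Gpr18 in high IL-7 averaged 51.0 and 51.4, under the filter, so their sizes depend on the added constant. In +IRF4 against low IL-7, 4 of 20 were higher and 4 lower, with differences of -2.13 for Lgr5, -1.53 for Lpar6, a receptor for lysophosphatidic acid, and 1.55 for Ccr7.

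G protein subunits changed in small numbers. Of 11 alpha subunits tested, 1 rose in low IL-7 over high IL-7 (Gnas, which stimulates adenylyl cyclase, by 0.34) and 1 in +IRF4 over high IL-7 (Gna11, of the Gq family, by 0.43, adjusted p = 0.0485). In +IRF4 against low IL-7, 2 were higher and 2 lower, with Gna11 at 0.55, Gna15, also of the Gq family, at 0.29 and Gnas at -0.31. Among 11 beta and gamma subunits, 4 rose and 0 fell in low IL-7, led by Gng2 (1.24), Gngt2 (0.45) and Gnb4 (0.31), and limma gave 5 with an unadjusted p under 0.05. Gng2 was the 1 called in +IRF4 against high IL-7, at 0.68, with mean intensities of 336 in +IRF4 and 496 in low IL-7, against 201 in high IL-7. The same 3 genes were lower in +IRF4 than in low IL-7, with differences of -0.56 for Gng2, -0.40 for Gngt2 and -0.37 for Gnb4.

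Downstream of the G proteins, 18 genes of adenylyl cyclases, phosphodiesterases and the cAMP-dependent kinase were tested. In low IL-7 against high IL-7, 8 of them rose and 3 fell, with a median of 0.37. Pde4b, which breaks down cAMP, rose by 2.05 (SE 0.12), with mean intensities of 2128 in low IL-7, against 503 in high IL-7. Pde3b, another phosphodiesterase, rose by 1.13, and Prkar1a, a regulatory subunit of the kinase, by 0.41. In +IRF4 against high IL-7, 1 of the 18 was called, Pde7a, higher by 0.72 (adjusted p = 0.0164), and the median was -0.05. In +IRF4 against low IL-7, 4 were higher and 11 lower, with differences of -1.88 for Pde4b, -1.22 for Pde3b and -0.44 for Prkar1a, and a median of -0.34. Of 7 genes of phospholipase C beta and PI3K gamma, 2 rose in low IL-7 over high IL-7, Pik3cg, the catalytic subunit driven by beta-gamma, by 1.58 and Pik3r5, its regulatory partner, by 0.47. Pik3r5 also rose in +IRF4 over high IL-7, by 0.55, while mean Pik3cg intensity was 259 in +IRF4 and 838 in low IL-7, against 269 in high IL-7. Pik3r5 averaged 101.6 in high IL-7, under the filter, so the sizes of its differences depend on the added constant. Pik3cg and Plcb2 were lower in +IRF4 than in low IL-7, with differences of -1.62 and -0.33.

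**Figure D4:**
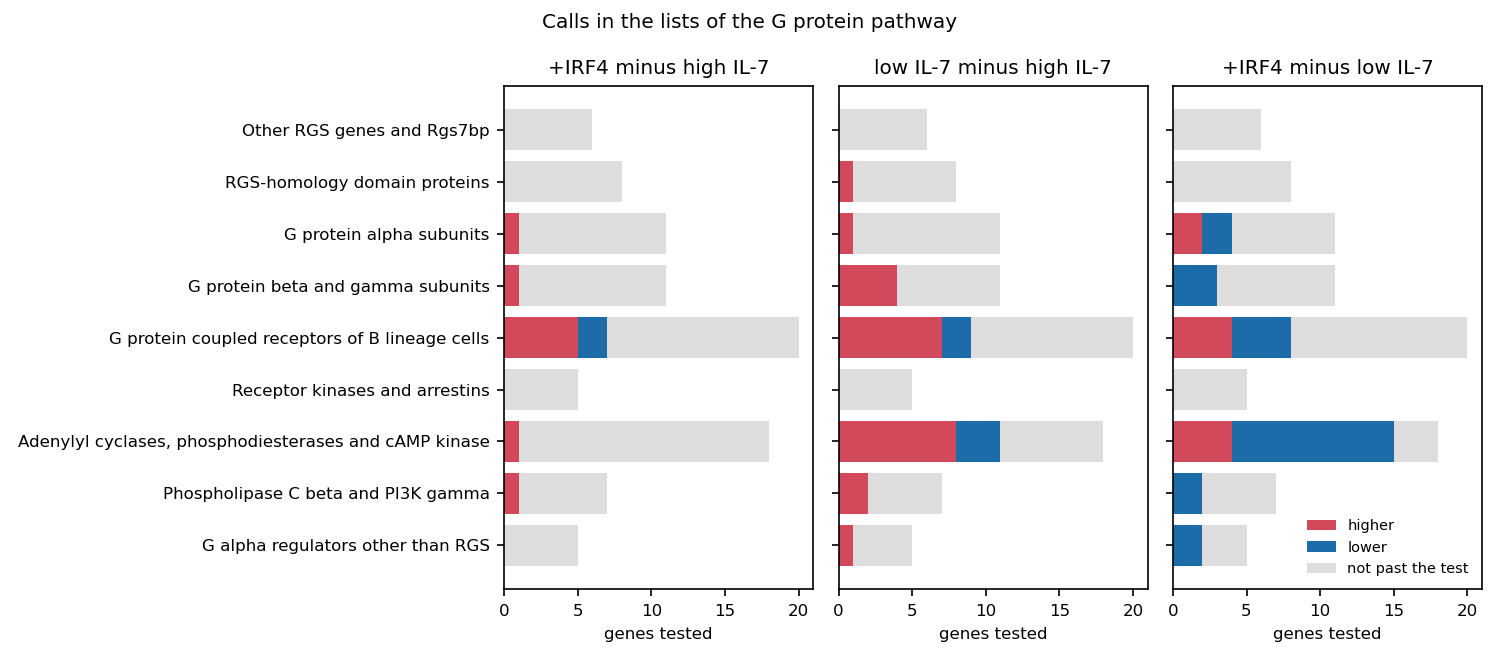
Number of genes tested in each list of the G protein pathway, split into those called higher (red), called lower (blue) and not past the test (grey), for +IRF4 minus high IL-7, low IL-7 minus high IL-7 and +IRF4 minus low IL-7. The longest blue bar is that of the cAMP list in +IRF4 minus low IL-7, with 11 of 18 genes lower.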

How the data were processed

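The authors deposited a table of linear intensity values for 9 Affymetrix arrays, per the file headers. The summarisation, scaling and software are not given in the sources used here. No column was left out. RNA was purified by Trizol and column and labelled with biotin, per the labels.

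Probe sets were named by the platform annotation, which gave 1 symbol to 34945, several to 932 and none to 9160. Of these symbols, 34741 matched RefSeq genes (GRCm38.p6) by Entrez identifier, and 0 changed. Coordinates are given for promoter windows alone, since the annotation names no build. Array medians differed by 0.11 on the log2 scale, under the limit of 0.2, so no normalization was added. The 64 control probe sets and those with a mean under the 40th percentile were left out, which left 27024. Values were taken as log2(intensity + 16) and fitted over all 9 arrays with limma 3.58.1 in R 4.3.3 (lmFit, eBayes with a trend), with Benjamini-Hochberg adjustment over all probe sets. The 6 RGS probe sets below the filter were tested in the same fit without the filter. The fit was tested on simulated data in which 200 probe sets were changed, fewer than were called in any comparison. Of log2 changes of 0.5 it recovered 31.3% in the run for low against high IL-7. In the runs for +IRF4 against high and low IL-7 it recovered 47.9% and 55.1%. Of changes of 1 it recovered 87.0% to 93.75%. A change of about 0.5 or less can thus go uncalled. All 3 runs used the same spread, with 67, 73 and 49 probe sets changed by 0.5, so these rates differ by the random draw. With more probe sets changed the adjustment is less strict, so recovery in the real comparisons can differ. Figures used matplotlib 3.10.9 in Python 3.11.15. The alternatives are given at the end.

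All RGS probe sets are named, as are up to 3 called genes of smallest p per pathway list and comparison, and the 2 genes nearest to each called member. Genes are also named where a count is small. The members and lists were chosen with earlier results of these data known. The sources used here name no batch. Replicate numbers come from the sample titles. Deviations from group means of same-numbered low and high IL-7 arrays correlated with r of 0.53, 0.35 and 0.19. Differently numbered arrays of these 2 groups gave r from -0.51 to 0.36. Whether the numbers pair the arrays is therefore not settled. The main fit used no block, and a replicate block was run as an alternative. The same-numbered +IRF4 arrays gave -0.35, -0.02 and -0.26 with high IL-7 and 0.01, -0.06 and -0.14 with low IL-7. Differently numbered +IRF4 and high IL-7 arrays gave -0.31 to 0.41.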

Additional observations from a re-analysis of the deposited data

How the results depend on the processing

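Over all alternatives, the 63 differences of RGS probe sets were recomputed, and of these values 1133 kept direction and side of the threshold, 12 lost a call, 11 gained one and 20 turned sign, all of the last kind near 0 and not called. The Rgs2 calls of 3 probe sets in all 3 comparisons, and the calls of Rgs12 and of Rgs19 1417786_a_at, were kept under every alternative run. Sign turned with array weights for Rgs1 in +IRF4 against high IL-7 (-0.013), for Rgs12 1457511_at (-0.047) and Rgs16 1451452_a_at (0.050) in +IRF4 against low IL-7, and under quantile normalization for Rgs10 (0.024) and Rgs16 1451452_a_at (0.0086) in +IRF4 against low IL-7.

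Leaving out single arrays gave ranges that cross 0. In +IRF4 against high IL-7 these were -0.0070 to 0.12 for Rgs12 1429380_at, -0.0091 to 0.18 for Rgs14, -0.15 to 0.011 for Rgs16 1426037_a_at, -0.029 to 0.096 for Rgs19 1434940_x_at, -0.040 to 0.11 for Rgs3 1425296_a_at and -0.034 to 0.087 for Rgs3 1454026_a_at. In +IRF4 against low IL-7 they were -0.040 to 0.059 for Rgs12 1457511_at, -0.089 to 0.066 for Rgs16 1451452_a_at, -0.14 to 0.083 for Rgs16 1455265_a_at and -0.028 to 0.10 for Rgs2 1443250_at, and in low against high IL-7 -0.18 to 0.0072 for Rgs3 1425296_a_at.

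The counts of calls moved more. With array weights 15309, 3247 and 15220 probe sets were called in low against high IL-7, +IRF4 against high IL-7 and +IRF4 against low IL-7, where 9827, 747 and 10134 were called without. With 1 probe set per gene, which tests fewer features, 4801, 365 and 4666 were called. In +IRF4 against high IL-7, 321 were called with only the arrays of the groups compared and 211 with a replicate block as well, a setting chosen after seeing the data. Without single arrays the counts ran from 7479 to 10442, 353 to 1047 and 7612 to 10707. RGS probe sets called were 3, 1 and 4 with 1 probe set per gene, and 5 in +IRF4 against high IL-7 with array weights. Without single arrays they were 5 to 6, 3 to 3 and 6 to 9. The replicate block changed the call of 2 RGS probe sets, both gained in low against high IL-7, Rgs18 1449856_at (adjusted p = 0.00465) and Rgs19 1434940_x_at (adjusted p = 0.0260), and no other RGS call. The cause of these changes was not tested. Signal over background is not known, which limits the 6 dim probe sets most.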
